A study of Mus musculus with 6 samples.

Results

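The lysosomal genes of this series comprise 44 genes for hydrolases, membrane proteins, activator proteins and subunits of the proton pump, together with the transcription factor Tfeb. They were chosen by gene symbol from a table of 49568 symbols, all 44 were found in it, and all 44 were among the 19199 genes that passed the filter on low counts. The lowest raw count of any of them in any lung was 188. RNA was sequenced from the whole lungs of 3 TNF+ and 3 TNF- mice, all female, 4 months old and on the C57BL/6 background. The TNF+ genotype (TNF-Tg) carries a human TNF-α transgene that is expressed in excess, and the TNF- mice are siblings without it. The promoter that drives the transgene is not given in the sources used here. The labels call the samples primary cells of the lung, while the methods describe whole lungs. Each lung is from a different mouse, and the comparison addressed how the genotypes differ.

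The lysosome is the acidic organelle in which proteins, glycans, sulfated sugars and lipids delivered by endocytosis, phagocytosis and autophagy are broken down. Its interior is kept acidic by the vacuolar proton pump, a rotary ATPase with a nucleotide-binding part outside the membrane and a proton-carrying part inside it, and loss of single hydrolases causes the lysosomal storage diseases. In the lung, macrophages are rich in lysosomes, and alveolar type 2 cells store surfactant in lamellar bodies, which are related organelles. Tfeb and its relatives Tfe3, Mitf and Tfec bind an E-box, a short palindrome, in the promoters of many lysosomal genes.

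Total counts per lung were between 25396923 and 30049463 in TNF+ lungs and between 31400978 and 32529408 in TNF- lungs. A pair of lungs stood apart. Gm42418 alone took 5.22% of the counts of TNF+ replicate 1 but 0.0774% to 0.274% elsewhere, and in TNF- replicate 1 the summed normalized count of the 7 tested skeletal muscle genes was 56876, against 467 to 1248 in the other lungs. The same lung carried transcripts of squamous epithelium, with 112473 raw counts over 8 marker genes against 63 to 321 elsewhere, most of them from the keratins Krt4 (56570 against 1 to 8) and Krt13 (45433 against 0 to 8). Within the TNF+ group, replicate 3 differed in fat cell genes, with a summed normalized count over 5 tested genes of 5401. Replicates 1 and 2 of that group stood at 1466 and 1668, and the TNF- lungs at 2684 to 6006. Counts assigned to mouse Tnf were higher in TNF+ lungs (log2 fold change 3.62, SE, the standard error, 0.46, adjusted p = 0.000471). The human transgene was not analysed here, and whether some of its reads were counted to mouse Tnf was not tested. Over the lysosomal genes, no pair of replicates agreed within sampling noise (chi-square between 30.2 and 192 for each degree of freedom).

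Transcripts of lysosomal genes were more abundant in TNF+ lungs. Of the 44 genes, 31 were called higher (edgeR's quasi-likelihood test, adjusted p under 0.05 over all genes tested) and 0 were called lower, while 24.0% of all genes tested were called higher and 23.4% were called lower. At an unadjusted p under 0.05, 33 were higher (28.2% of all genes tested) and 2 were lower (26.6%). DESeq2 called 31 higher and 2 lower, against 19.5% and 20.9% of the genes it tested. With a log2 fold change of at least 1 as a further requirement, 15 genes were called higher, against 10.3% of all genes tested. All TNF+ lungs exceeded all TNF- lungs for 34 of the 44 genes (30.5% of all genes tested), and the reverse held for 2 (28.2% of all genes tested), Scarb2 and Smpd1. The median log2 fold change of the 44 genes was 0.74, against 0.03 for all genes tested. In bulk RNA of whole lungs, more cells of a type and more RNA per cell cannot be told apart.

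Summed over the 44 genes, the normalized count (the count scaled to a common library size) was 551461, 591986 and 456898 in TNF+ lungs, against 210532, 219982 and 216378 in TNF- lungs. The sums were clearly separate, and their means, 533448 ± 69322 and 215631 ± 4769 (SD, n = 3 each), had a ratio of 2.47. The genes held 1.65%, 1.91% and 1.66% of all counts in the TNF+ lungs, against 0.702%, 0.706% and 0.750% in the TNF- lungs. Among the TNF+ lungs, replicate 2 was the highest for 27 of the 44 genes and replicate 3 the lowest for 35. This order depended on the scaling, since by total counts alone replicate 1 was the lowest for 32 of the genes.

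**Figure D1:**
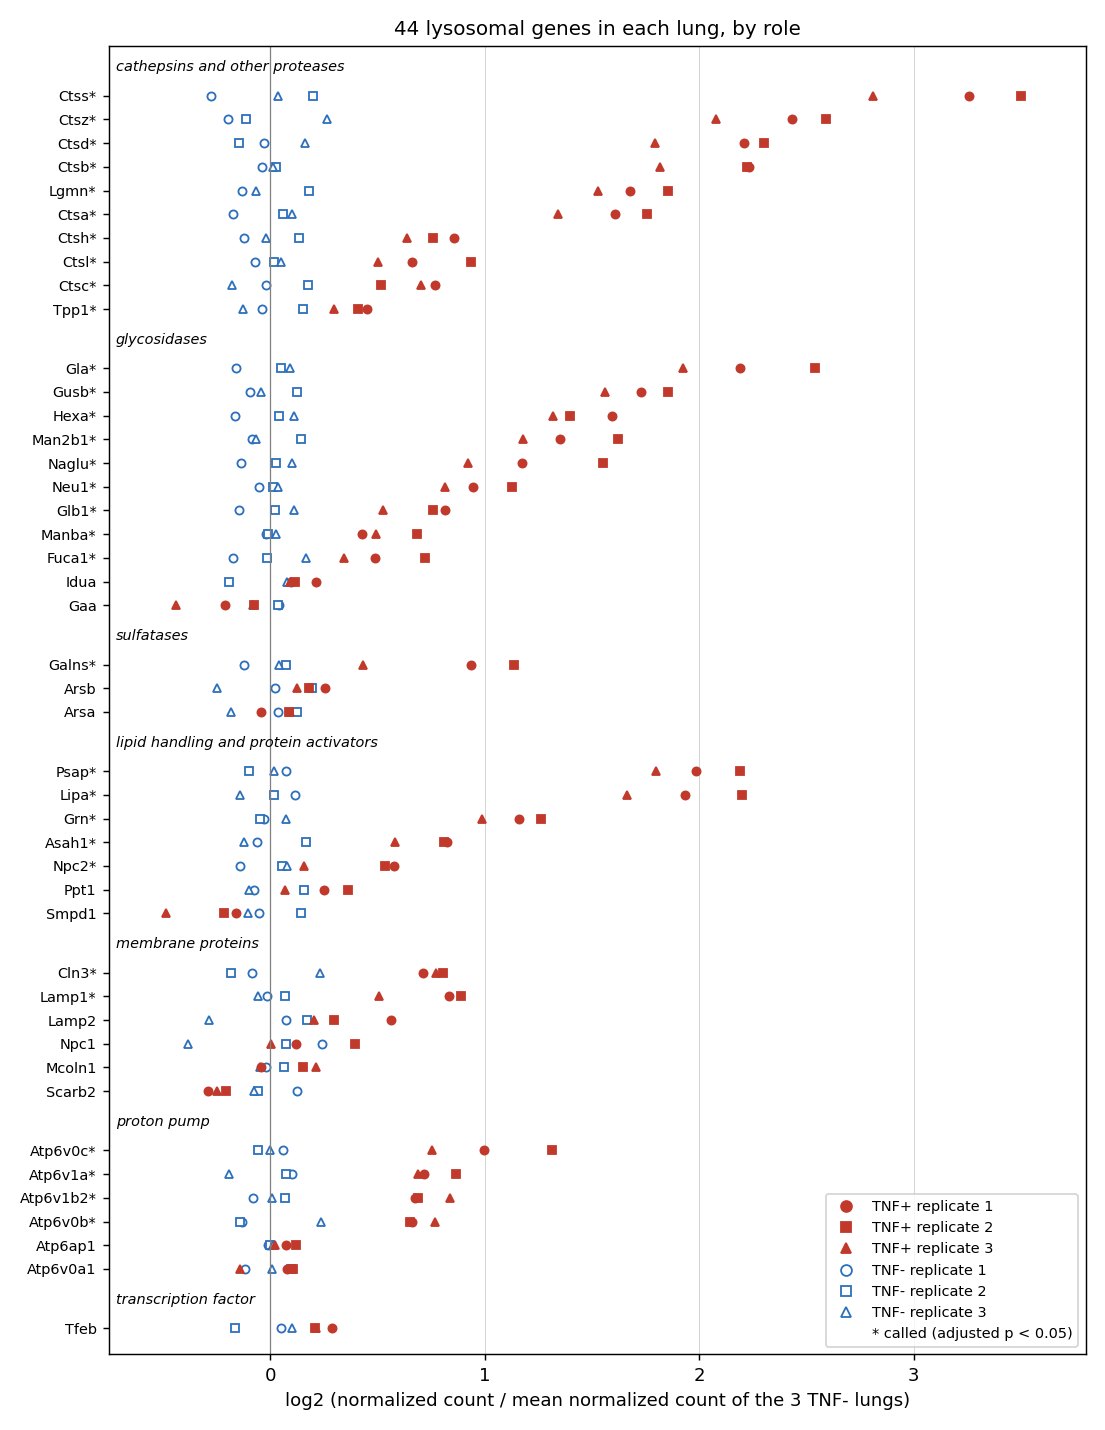
Each of the 44 lysosomal genes in each lung, as the log2 of its normalized count over the mean of the 3 TNF- lungs, grouped by role (red, TNF+; blue and open, TNF-; the marker shape gives the replicate; an asterisk marks a gene called by edgeR). The red points of the 10 proteases all lie to the right of the blue points, while those of Gaa, Scarb2 and Smpd1 lie mostly to the left.

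All 10 proteases were higher in TNF+ lungs (24.0% of all genes tested), with a median log2 fold change of 1.64 and a range from 0.39 to 3.22. Ctss, the cysteine protease that trims the invariant chain before peptides are loaded onto MHC class II, changed most of all 44 genes. Its normalized count was 37211, 43970 and 27225 in TNF+ lungs, against 3215, 4464 and 3989 in TNF- lungs. The lowest TNF+ lung was thus far above the highest TNF- lung, and the fold change of the means was 9.29 (log2 fold change 3.22, SE 0.22, adjusted p = 2.15e-05). Ctsz, a carboxypeptidase, stood at 24520, 27355 and 19193 in TNF+ lungs and at 3969, 4211 and 5464 in TNF- lungs (log2 fold change 2.38, SE 0.18, adjusted p = 3.97e-05). Ctsd, the main aspartic protease of the lysosome, stood at 41659, 44503 and 31293 against 8845, 8150 and 10086 (log2 fold change 2.12, SE 0.17, adjusted p = 4.76e-05). For both, the groups were well separated and TNF+ replicate 3 was the lowest of its group. In GENCODE M21, 34.4% of the exon bases of Ctsd lie under another gene model on the same strand, Gm49369, and how reads there were assigned is not given in the sources used here.

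Ctsb, a cysteine protease that acts both inside and at the end of proteins, had the largest count of the proteases, at 76208, 75711 and 57040 in TNF+ lungs against 15770, 16509 and 16342 in TNF- lungs. The TNF- lungs were nearly level, and the log2 fold change was 2.10 (SE 0.16, adjusted p = 3.67e-05). Lgmn, the asparaginyl endopeptidase that matures several cathepsins, stood at 8691, 9828 and 7832 against 2475, 3077 and 2593 (log2 fold change 1.69, SE 0.13, adjusted p = 4.09e-05). Ctsa, a serine carboxypeptidase that shields the sialidase Neu1 and the galactosidase Glb1 in a complex, stood at 15923, 17645 and 13229 against 4631, 5441 and 5595 (log2 fold change 1.58, SE 0.14, adjusted p = 8.26e-05). Neither group of Lgmn or Ctsa reached into the other. The remaining proteases changed less, with log2 fold changes of 0.75 for Ctsh, an aminopeptidase that also processes surfactant protein in alveolar type 2 cells, 0.71 for Ctsl, 0.67 for Ctsc, which activates the serine proteases of leukocyte granules, and 0.39 for Tpp1 (adjusted p between 0.00114 and 0.0183). Tpp1 was not called without TNF+ replicate 1 (adjusted p = 0.0877), without TNF+ replicate 2 (adjusted p = 0.0553) or without TNF- replicate 1 (adjusted p = 0.0673). For Ctsl, 26.8% of the exon bases lie under a gene on the opposite strand.

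The cathepsins did not rise in proportion. Per kilobase of exon, the level of Ctss was 2.13 to 2.59 times that of Ctsb in the TNF+ lungs and 0.908 to 1.20 times in the TNF- lungs. The level of Ctsl relative to Ctsb was 0.0733 to 0.0893 in TNF+ lungs and 0.213 to 0.224 in TNF- lungs. Neither ratio overlapped between the groups. Such ratios are taken within a lung and are the same under every scaling of the libraries.

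Of the 11 glycosidases, which remove sugars from glycoproteins, glycolipids and glycosaminoglycans, 9 were higher, against 24.0% of all genes tested (median log2 fold change 0.97). Gla, the alpha-galactosidase that is deficient in Fabry disease, stood at 914, 1167 and 762 in TNF+ lungs and at 180, 208 and 214 in TNF- lungs. It had the lowest level per length of the 44 genes in TNF- lungs and yet the largest change of the glycosidases (log2 fold change 2.24, SE 0.18, adjusted p = 4.21e-05). Gusb, the beta-glucuronidase, stood at 5067, 5530 and 4516 against 1434, 1670 and 1485 (log2 fold change 1.72, SE 0.11, adjusted p = 2.00e-05). The Gusb values were close to each other within each genotype and far apart between them. Hexa, the alpha subunit of beta-hexosaminidase, stood at 8797, 7693 and 7278 against 2604, 3002 and 3152 (log2 fold change 1.44, SE 0.12, adjusted p = 5.64e-05). Man2b1, the lysosomal alpha-mannosidase, stood at 11991, 14464 and 10629 against 4428, 5186 and 4493 (log2 fold change 1.39, SE 0.14, adjusted p = 0.000149). In both, every TNF+ lung was above every TNF- lung.

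Naglu, an enzyme of heparan sulfate breakdown, rose by a log2 fold change of 1.24, the sialidase Neu1 by 0.97, Glb1 by 0.70, the beta-mannosidase Manba by 0.54 and the fucosidase Fuca1 by 0.53 (adjusted p between 0.000203 and 0.0126). Fuca1 was not called without TNF- replicate 1 (adjusted p = 0.0509). The exceptions were Idua, the iduronidase of heparan and dermatan sulfate breakdown, with a log2 fold change of 0.14 (adjusted p = 0.319), and Gaa, the acid alpha-glucosidase that degrades glycogen, with -0.23 (adjusted p = 0.129). Gaa was the only glycosidase with a negative value, at 3552 to 4566 in TNF+ lungs and 4556 to 4954 in TNF- lungs, ranges that just overlapped.

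Of the 3 sulfatases, 1 was higher, a share near that of all genes tested (24.0%). This was Galns (log2 fold change 0.86, SE 0.17, adjusted p = 0.00448), at 847 to 1378 in TNF+ lungs and 575 to 660 in TNF- lungs. It removes sulfate from keratan and chondroitin sulfate. Arsa, which desulfates the myelin lipid sulfatide, stood at 1076, 1178 and 1182 in TNF+ lungs and at 1138, 1209 and 977 in TNF- lungs. The lungs of both genotypes were intermixed for Arsa (log2 fold change 0.05, SE 0.11, adjusted p = 0.740), and its sign turned without TNF- replicate 3. Arsb, a sulfatase of dermatan sulfate, had a log2 fold change of 0.19 (adjusted p = 0.243), and 39.9% of its exon bases lie under genes on the opposite strand.

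Among the 7 genes for lipid handling and protein activators, 5 were higher, against 24.0% of all genes tested (median log2 fold change 0.74). Psap, the precursor of the saposins that present sphingolipids to their hydrolases, stood at 112175, 129361 and 98675 in TNF+ lungs and at 29890, 26523 and 28709 in TNF- lungs. The groups were far apart (log2 fold change 2.00, SE 0.17, adjusted p = 5.16e-05), and Psap made up 20.3% to 21.9% of the summed normalized count of the 44 genes in TNF+ lungs against 12.1% to 14.2% in TNF- lungs. Lipa, the acid lipase of cholesteryl esters and triglycerides, stood at 7430, 8946 and 6161 against 2106, 1968 and 1766 (log2 fold change 1.95, SE 0.15, adjusted p = 4.16e-05). Every TNF+ lung was well above the TNF- lungs. Grn, the gene of progranulin, rose by a log2 fold change of 1.14 (adjusted p = 0.000168) and Asah1, the acid ceramidase, by 0.74 (adjusted p = 0.00139).

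Npc2, which hands cholesterol to Npc1, was called with the smallest margin, at 27989 to 37490 in TNF+ lungs and 22792 to 26479 in TNF- lungs (log2 fold change 0.43, SE 0.15, adjusted p = 0.0464). Its share of the summed count was lower in TNF+ lungs, 6.13% to 6.80% against 10.8% to 12.2%, and its call was lost when any lung other than TNF+ replicate 3 was left out (adjusted p between 0.0578 and 0.193). The call was also lost with DESeq2's size factors (adjusted p = 0.0582), with upper-quartile factors (adjusted p = 0.0629) and with no filter on low counts (adjusted p = 0.058). Ppt1, the thioesterase that removes palmitate from proteins, had a log2 fold change of 0.23 (adjusted p = 0.129). Smpd1, the acid sphingomyelinase, had a log2 fold change of -0.28 (SE 0.12, adjusted p = 0.0833), at 2061 to 2579 in TNF+ lungs and 2685 to 3184 in TNF- lungs. The groups of Smpd1 did not overlap, and it passed the test as lower with DESeq2 (adjusted p = 0.0475), with total counts only (adjusted p = 0.0493) and with upper-quartile factors (adjusted p = 0.0463).

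Of the 6 membrane proteins, 2 were higher, which is near the 24.0% of all genes tested. Lamp1, a major glycoprotein of the lysosomal membrane, stood at 29632 to 38725 in TNF+ lungs and 20100 to 21902 in TNF- lungs (log2 fold change 0.75, SE 0.14, adjusted p = 0.00323). Cln3, whose loss causes juvenile Batten disease, had a log2 fold change of 0.76 (SE 0.12, adjusted p = 0.00141). Lamp2, which also serves chaperone-mediated autophagy, had a log2 fold change of 0.36 (adjusted p = 0.0774), and Npc1, the cholesterol exporter, had 0.18 (adjusted p = 0.417). Mcoln1, a calcium-permeable channel of the lysosomal membrane, stood at 1460, 1671 and 1745 in TNF+ lungs and at 1482, 1575 and 1455 in TNF- lungs. Its groups were intermixed (log2 fold change 0.11, SE 0.10, adjusted p = 0.367). Scarb2, the carrier of glucocerebrosidase to the lysosome, had a log2 fold change of -0.25 (SE 0.10, adjusted p = 0.0738), at 5355 to 5687 against 6217 to 7133. It passed the test as lower with DESeq2 (adjusted p = 0.0247), with DESeq2's size factors (adjusted p = 0.0495) and with upper-quartile factors (adjusted p = 0.0407).

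**Figure D2:**
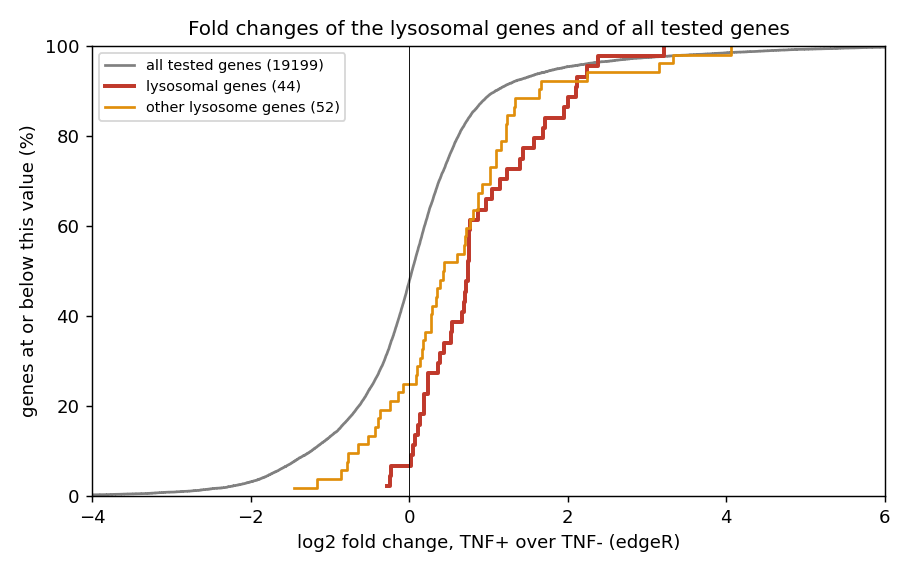
Cumulative share of genes (y axis, percent) at or below each log2 fold change of TNF+ over TNF- (x axis, cut at -4 and 6), for the 44 lysosomal genes, 52 other lysosome genes and all 19199 genes tested. The curve of the 44 genes lies to the right of that of all genes over most of its length, with medians of 0.74 and 0.03, and starts at -0.28.

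Tfeb, the transcription factor among the 44 genes, stood at 1189, 1127 and 1132 in TNF+ lungs and at 1011, 870 and 1046 in TNF- lungs. Every TNF+ lung was above every TNF- lung by a narrow margin, and the difference did not pass the test (log2 fold change 0.24, SE 0.10, adjusted p = 0.0869). Its relatives, taken from a list of 18 genes tied to the regulation of the lysosome, were called higher. Tfec, a family member known from macrophages, stood at 374, 347 and 414 against 58.3, 71.9 and 73.8 (log2 fold change 2.48, SE 0.17, adjusted p = 2.15e-05). Mitf had a log2 fold change of 2.00 (SE 0.15, adjusted p = 3.63e-05) and Tfe3, named after its value was seen, had 0.76 (SE 0.09, adjusted p = 0.000292). Per kilobase of exon, the level of Tfec was 0.312 to 0.371 of that of Tfeb in TNF+ lungs and 0.0584 to 0.0837 in TNF- lungs, and the level of Mitf was 0.544 to 0.610 of it against 0.127 to 0.197.

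Over the 18 genes of this list, 11 were called higher and 1 lower, against 24.0% and 23.4% of all genes tested (median log2 fold change 0.53). Gpnmb, a membrane glycoprotein listed as a known target of the Mitf family and not as a regulator, changed most. It stood at 25100, 32020 and 16000 in TNF+ lungs and 570, 484 and 559 in TNF- lungs (log2 fold change 5.50, SE 0.28, adjusted p = 6.69e-06). Lamtor4, a subunit of the Ragulator scaffold on the lysosomal surface, had a log2 fold change of 0.91 (adjusted p = 0.0115), at 1238, 1248 and 1091 in TNF+ lungs and 518, 488 and 902 in TNF- lungs. TNF- replicate 3 lay nearer to the TNF+ lungs than the other TNF- lungs did, and the call was lost without TNF+ replicate 1 and TNF- replicate 1 together (adjusted p = 0.078). The gene called lower was Mtor, the kinase recruited by that scaffold (log2 fold change -0.38, SE 0.11, adjusted p = 0.0255). Its call was lost without TNF+ replicate 1 (adjusted p = 0.0600), TNF+ replicate 2 (0.0772), TNF- replicate 1 (0.0664) or TNF- replicate 2 (0.0916). It was also lost in the edgeR fit with a block by replicate number (adjusted p = 0.0634).

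The promoters of the 44 genes were read for the E-box that Tfeb and its relatives bind. This word is already known from promoters of many lysosomal genes. A higher share among genes chosen as lysosomal is therefore a description and no independent result. RefSeq windows of GRCm38.p6, from 250 bases before to 50 after a gene's start, were matched by symbol for 38 of the 44 genes. The 6 others were Asah1, Atp6v1b2, Ctsb, Ctsh, Galns and Npc1. The E-box CACGTG, which reads the same on both strands, was held by 14 of the 38 genes (36.8%), against 1310 of 12148 tested genes with a window (10.8%), a gene being counted if any of its windows held it. By window, it was held by 14 of the 46 windows of these genes (30.4%), against 7.15% of all windows of this length. The longer word GTCACGTG or its reverse complement CACGTGAC, each of which contains the E-box, was held by 11 of the 38 genes (28.9%) against 4.21% of the tested genes, and by 23.9% of the windows of these genes against 2.25% of all windows. These are matches of letters in a window and no measure of binding.

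The stretches below show the E-box, in capitals, with up to 12 bases on either side, for the 3 genes that changed most among those that hold it, and for Mcoln1 and Arsa, which hold it and were not called. Mcoln1 holds it at 2 places, of which the one nearer the start is shown. Lgmn has 2 windows, and the E-box lies in the one inside its gene model, while the window at the 5′ end of the model, chr12:102439679-102439978, holds none. All are written 5′ to 3′ on the strand of the gene. For Gla (gene at chrX:134588149-134601125, minus strand) the stretches lie at chrX:134601215-134601244 and chrX:134601182-134601211, with both E-boxes outside the GENCODE gene model. For Ctsd (chr7:142375911-142388038, minus strand) they lie at chr7:142388055-142388077, with the E-box outside the model, and at chr7:142387908-142387937, with the E-box in an annotated exon. That of Lgmn (minus strand) lies at chr12:102439124-102439153 with its E-box in an annotated intron, that of Mcoln1 (plus strand) at chr8:3500462-3500491 with its E-box in an exon, and that of Arsa (minus strand) at chr15:89477423-89477452 with its E-box outside the model.
Gla, E-box starting 227 bases before the start: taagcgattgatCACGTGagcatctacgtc
Gla, E-box starting 194 bases before the start: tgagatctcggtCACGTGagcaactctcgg
Ctsd, E-box starting 245 bases before the start: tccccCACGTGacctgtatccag
Ctsd, E-box starting 98 bases before the start: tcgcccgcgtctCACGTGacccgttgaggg
Lgmn, E-box starting 49 bases before the start inside the gene model: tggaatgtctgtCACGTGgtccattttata
Mcoln1, E-box starting 45 bases before the start: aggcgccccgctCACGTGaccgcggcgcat
Arsa, E-box starting 16 bases before the start: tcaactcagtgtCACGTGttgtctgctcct

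Of the 26 called genes with a window, 11 held the E-box (42.3%), and of the 12 that were not called, 3 held it (25%), namely Mcoln1, Arsa and Gaa. Among all tested genes called higher, 11.2% held it. Lamp1 had 4 E-boxes in its window, the largest number of the 38 genes, with a log2 fold change of 0.75. Ctss, Ctsz, Psap and Lipa, which are among the genes that changed most, had none in theirs. This says only that these letters are not in those windows.

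Of the 6 proton pump genes, 4 were higher, against 24.0% of all genes tested, with a median log2 fold change over the 6 of 0.72. Atp6v0c, a proteolipid of the membrane ring that carries the protons, stood at 1769 to 2606 in TNF+ lungs and 1005 to 1091 in TNF- lungs (log2 fold change 1.04, SE 0.14, adjusted p = 0.00063), and 7.84% of its 100-base windows also occur in the pseudogene Atp6v0c-ps2. Atp6v1a and Atp6v1b2, which form the nucleotide-binding head, had log2 fold changes of 0.76 (adjusted p = 0.000878) and 0.74 (adjusted p = 0.000528). Atp6v0b, a further proteolipid of the ring, had 0.69 (adjusted p = 0.00243). Atp6ap1, an accessory protein, had a log2 fold change of 0.07 (adjusted p = 0.541). Atp6v0a1, an isoform of the large membrane subunit, changed least of the 44 genes, at 4542, 4632 and 3913 in TNF+ lungs and 3976, 4609 and 4340 in TNF- lungs. The lungs of the genotypes were intermixed (log2 fold change 0.02, SE 0.11, adjusted p = 0.906), and the sign of this value turned under every other scaling tried.

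The pump is assembled from subunits of which several have alternative isoforms. Of 19 further subunit genes, 17 had enough counts to be tested (median log2 fold change 0.61). Of these, 10 were called higher, against 24.0% of all genes tested, and 4 lower, close to the 23.4% of all genes tested. Over all 23 tested subunits, which include those among the 44 genes, 14 were higher, 4 were lower and 5 were not called. The d subunit isoform Atp6v0d2, known from osteoclasts and macrophages, stood at 2340, 3145 and 1634 in TNF+ lungs and 528, 669 and 619 in TNF- lungs (log2 fold change 1.97, SE 0.22, adjusted p = 0.000265). Tcirg1, the isoform of the large membrane subunit that osteoclasts use, named after its value was seen, stood at 7150, 8127 and 7425 against 2338, 2603 and 3019 (log2 fold change 1.51, SE 0.12, adjusted p = 4.79e-05). For both, the groups did not overlap.

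The 4 subunits called lower were isoforms as well. Atp6v0a4 and Atp6v1b1, which are known from acid-secreting epithelial cells of the kidney, had log2 fold changes of -1.76 (SE 0.26, adjusted p = 0.00099) and -1.64 (SE 0.25, adjusted p = 0.00112), at normalized counts of 38.3 to 68.6 against 161 to 222 and of 55.7 to 73.4 against 151 to 265. Atp6v0e2 had a log2 fold change of -1.75 (SE 0.12, adjusted p = 1.98e-05) and Atp6v1c2 of -0.82 (SE 0.16, adjusted p = 0.00374). Per kilobase of exon, the level of Tcirg1 was 2.24 to 2.70 times that of Atp6v0a1 in TNF+ lungs and 0.804 to 0.991 times in TNF- lungs. The ratio thus differed between the genotypes, while the order of these isoforms in TNF- lungs, near 1, depends on the exon lengths used. The level of Atp6v0d2 was 0.291 to 0.425 of that of Atp6v0d1 in TNF+ lungs and 0.108 to 0.136 in TNF- lungs. The level of Atp6v1c2 was 1.18 to 1.76 times that of Atp6v1c1 against 3.84 to 4.31 times.

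**Figure D3:**
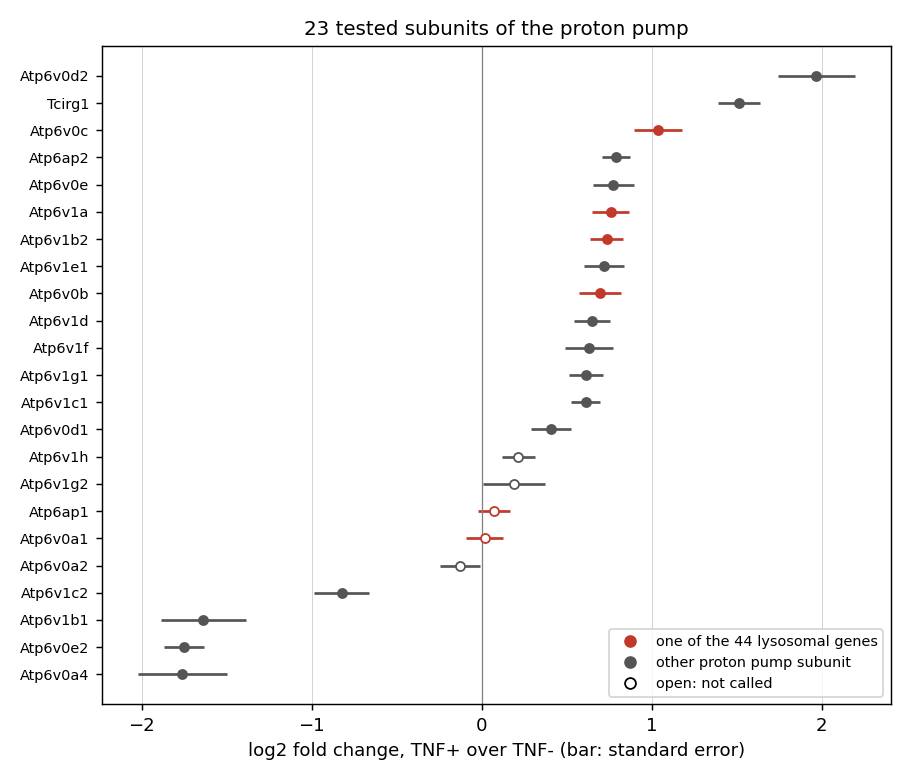
Log2 fold change of TNF+ over TNF- (x axis, with its standard error) of the 23 tested subunits of the proton pump, in order of the change (red, the 6 that belong to the 44 lysosomal genes; grey, other subunits; open symbols, not called). Atp6v0d2 and Tcirg1 lie at 1.97 and 1.51, the other subunits called higher between 0.41 and 1.04, and Atp6v1c2, Atp6v1b1, Atp6v0e2 and Atp6v0a4 below 0.

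Of 52 other lysosome genes, 30 were called higher, against 24.0% of all genes tested. Another 10 were called lower, a share no larger than the 23.4% of all genes tested, and the median log2 fold change was 0.43. The largest changes were those of Mcoln2 (log2 fold change 4.07, SE 0.22, adjusted p = 8.08e-06), a relative of Mcoln1, of Cd68 (3.33, SE 0.20, adjusted p = 1.29e-05), a glycoprotein of macrophage lysosomes, of Acp5 (3.15, SE 0.20, adjusted p = 1.55e-05), the tartrate-resistant acid phosphatase, and of Prcp (2.24, SE 0.11, adjusted p = 5.09e-06), a carboxypeptidase. Mcoln2 stood at 1032, 1150 and 950 in TNF+ lungs and 43.96, 63.3 and 79.1 in TNF- lungs. Per kilobase of exon, its level was 1.25 to 1.63 times that of Mcoln1 in TNF+ lungs and 0.0681 to 0.125 times in TNF- lungs. The order of these genes in TNF+ lungs rests on the exon lengths, 3288 bases for Mcoln2 and 7555 for Mcoln1. Raw counts of Mcoln2 there were 783, 1112 and 1006, below the 1107, 1616 and 1849 of Mcoln1. Among the genes called lower were Hyal1, a hyaluronidase (log2 fold change -1.46, adjusted p = 0.000234), Tpcn1, a cation channel (-1.16, adjusted p = 0.000133), Sort1, a sorting receptor (-0.86, adjusted p = 0.000996), and Ids, a sulfatase of heparan and dermatan sulfate (-0.79, adjusted p = 0.00104). For Hyal1, 51.9% of the exon bases lie under another gene on the same strand.

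Levels of different genes were compared as CPM (counts scaled to library size) per kilobase of exon. Psap had the highest level of the 44 genes in both groups, 1367 ± 185 in TNF+ lungs and 342 ± 20.6 in TNF- lungs (SD, n = 3). In TNF- lungs it was followed by Lamp1 (258 ± 11.4), Npc2 (153 ± 12.3) and Ctsd (127 ± 13.8). The next levels, those of Ctsz (104 ± 18.4), Ctss (94.8 ± 15.4), Ctsb (88.6 ± 2.12) and Grn (87.3 ± 3.95), lay within their spread of each other. In TNF+ lungs Ctss was next to Psap (880 ± 205), followed by Ctsd (551 ± 97.8) and Ctsz (544 ± 95.1), which did not differ beyond their spread, and then by Lamp1 (435 ± 60.2) and Ctsb (381 ± 59.7). At the low end, Gla stood at 2.03 ± 0.19 in TNF- lungs and at 9.60 ± 2.07 in TNF+ lungs, and Tfeb at 5.69 ± 0.54 and 6.71 ± 0.20.

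**Figure D4:**
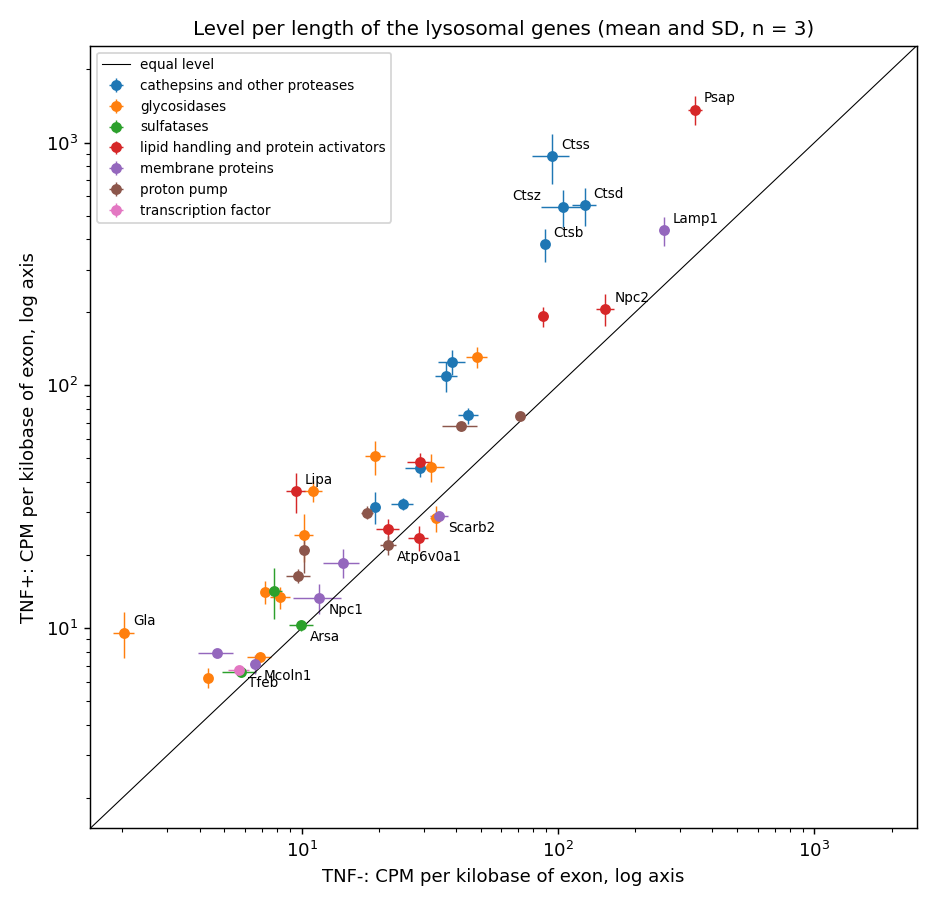
Level of each of the 44 lysosomal genes in TNF- lungs (x axis) and TNF+ lungs (y axis), in CPM per kilobase of exon on log axes, as mean and SD of 3 lungs, coloured by role, with the line of equal level. Ctss, Ctsz, Ctsd, Ctsb and Psap lie far above the line, and Atp6v0a1, Arsa and Mcoln1 lie on or near it.

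Markers of other cell types moved with the genotype. Of 14 macrophage and monocyte genes, 13 were called higher and 1, Siglecf, lower, against 24.0% and 23.4% of all genes tested. Their summed normalized count was 127032 to 179636 in TNF+ lungs and 19597 to 21304 in TNF- lungs, a ratio of the means of 7.29, and none was at 0. The largest mean counts over all 6 lungs were those of Marco, a scavenger receptor (log2 fold change 7.10, adjusted p = 4.97e-05), and Csf1r, the receptor for macrophage colony-stimulating factor (2.66, adjusted p = 5.09e-06). Marco made up much of the sum in TNF+ lungs, with a mean of 67751 against 494 in TNF- lungs, and without it the ratio of the means of the other 13 genes was 4.12. Of 9 alveolar type 2 genes, 3 were called lower, near the 23.4% of all genes tested, and the sum of the list was 501594 to 638044 in TNF+ lungs against 704402 to 848200. All 6 alveolar type 1, 6 airway epithelium and 8 endothelium genes were called lower, against 23.4% of all genes tested. The same held for 5 of 7 fibroblast genes and 5 of 7 smooth muscle and pericyte genes. Of the B and plasma cell genes 5 of 8 were called higher, of the T cell genes 6 of 8, and of the neutrophil genes 2 of 8, near the 24.0% of all genes tested, with 4 lower. The part of these shifts in the levels of the lysosomal genes was not tested.

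**Figure D5:**
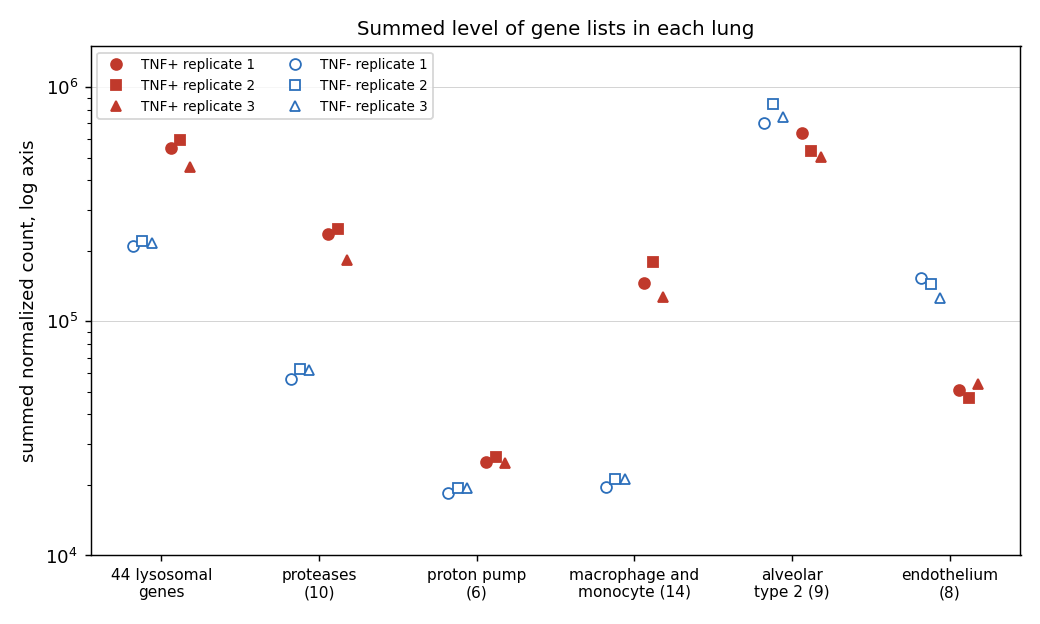
Summed normalized count per lung (y axis, log scale) of the 44 lysosomal genes, of their 10 proteases and 6 proton pump genes, and of 3 lists of marker genes (red, TNF+; blue and open, TNF-; the marker shape gives the replicate). The groups do not overlap in any of the 6 sums. Of these 6, the lists of macrophage and monocyte genes and of proteases show the widest gaps upward, with ratios of the means of 7.29 and 3.68. Lists of other immune cells are not shown.

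Without both lungs that stood apart, a check chosen after the data were seen, 27 of the 44 genes were called higher, against 13.8% of all genes tested in those lungs, and the median log2 fold change was 0.64. The genes that lost their call were Lamp1 (adjusted p = 0.056), Fuca1 (adjusted p = 0.102), Npc2 (adjusted p = 0.429) and Tpp1 (adjusted p = 0.204). The other 27 genes were called under every one of the 14 alternatives tried for each gene, among which the minimum log2 fold change of 1, passed by 15 of the 31 genes, is not counted. Without TNF+ replicate 3, the lung that differed in fat cell genes, 31 of the 44 genes were called higher, against 21.1% of all genes in that fit.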

How the data were processed

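Poly(A) RNA of whole lungs was sequenced by the authors as stranded libraries, single-end 100 bp. According to the submitters' processing notes, reads were trimmed with Trimmomatic (version 0.36), mapped with STAR (version 2.5.2b) to GRCm38.p5 and counted with featureCounts. Its strand setting and annotation are not given in the sources used here. The authors deposited raw counts per gene symbol, without normalization.

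In R (version 4.3.3), edgeR (version 4.0.16) was run on the counts of all 6 lungs. Genes were filtered with filterByExpr, libraries were scaled by TMM, and genotype was tested without covariates by quasi-likelihood. P-values were adjusted by Benjamini-Hochberg over all genes tested, with calls at 0.05. The standard error given was derived from the test, as the absolute log2 fold change over the square root of its F statistic. A normalized count is the count brought to the mean TMM-scaled library size. The total counts, 25396923 to 32529408 per lung, set 3 counts at 0.0922 to 0.118 CPM. Gene positions and exon lengths are those of GENCODE M21, on the same assembly. An exon length covers the merged exons of all transcripts of a gene and can exceed that of the transcript expressed. The order of different genes by level per kilobase can depend on it. The programs were tested on simulated data.

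The genes and lists were chosen with earlier results of these data known. Every lung's value is given for the 12 called genes with the largest change, Tfeb, Mcoln1 and the 2 genes with the smallest change. From each further lysosome list the 4 called genes with the largest change and up to 4 called lower are named. From the list of macrophage genes the 2 with the largest mean count over all lungs are named, and from the other immune cell lists the 1 with the largest. Tcirg1, Tfe3, Siglecf, Krt4 and Krt13 were named after their values were seen. Protein sequences were not used here. Alternatives were DESeq2 (version 1.42.0), other scalings and filters, a block by replicate number, a minimum fold change, and leaving out lungs.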

Additional observations from a re-analysis of the deposited data

How the results depend on the processing

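The number of lysosomal genes called higher was 31, between 28 and 31 with each lung left out in turn (17.2% to 23.3% of all genes), and 15 when an absolute log2 fold change of at least 1 was also asked for. That requirement also left 4320 of 9096 genes called in all, 18 of 40 other lysosome genes and 5 of 14 other proton pump subunits. The number called lower was 0, but 2 with DESeq2, 1 with DESeq2's size factors in edgeR, 1 with total counts only and 2 with upper-quartile factors. The median log2 fold change of the lysosomal genes, 0.74, was 0.67 to 0.77 with each lung left out and 0.64 without both lungs that stood apart. Of 616 values for single genes under alternatives, 584 kept their direction and their side of the threshold, 17 lost the call, 6 gained it and 9 turned sign. The log2 fold change of Atp6v0a1 was -0.013 with DESeq2, -0.0077 with DESeq2's size factors, -0.014 with total counts only, -0.027 with upper-quartile factors and -0.11 without both lungs that stood apart. It was between -0.062 and 0.075 with each lung left out, and that of Arsa between -0.040 and 0.11. The causes were not tested. Of 364 such values for 26 genes outside the 44, 357 kept direction and side and 7 lost the call. Other scalings moved the median log2 fold change of all genes from 0.03 to between -0.0084 and 0.011.

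Same-numbered lungs come from different mice and did not deviate together (correlations -0.15, -0.0043 and -0.24). With the replicate block, 7686 genes and 30 of the lysosomal genes were called, and Npc2 was lost (adjusted p = 0.108). With 3 lungs per genotype, the spread between mice limits which small changes can be called.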
